A study of Mus musculus with 24 samples.

Results

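The 9 genes described here encode the molecules by which leukocytes attach to the vessel wall: the endothelial selectins Selp and Sele, the selectin ligand Selplg, the endothelial counter-receptors Icam1, Icam2 and Vcam1, and the leukocyte integrin chains Itgal, Itgb2 and Itga4. They were taken by name, by a rule that uses no measured value although earlier results of these data were known when it was set, and each was found once among the 43346 genes of the count table. All 9 passed the filter on low counts that left 21891 genes for testing. They were measured by RNA-seq in the cortex of 24 mice, 1 library per mouse, in 4 groups of 6. The groups were mice with the genotype label Abca7 after LPS (lipopolysaccharide, an outer-membrane component of Gram-negative bacteria that activates innate immunity), control mice after LPS, mice labelled Abca7 with no stimulus, and control mice with no stimulus. The study describes the first label as heterozygous for Abca7, which encodes a lipid transporter, and says that LPS was injected. The allele, the strain, the control mice's alleles at that locus, the LPS dose and route and the time of collection are facts not given in the sources used here. Ages were 54 to 56 days in both LPS groups, 55 to 58 days in the unstimulated mice labelled Abca7 and 55 to 57 days in the unstimulated controls.

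Leukocytes leave the blood in steps. Selectins on activated endothelium catch carbohydrate-bearing ligands such as the product of Selplg, the rolling cell is exposed to chemokines, and its integrins then bind immunoglobulin-family ligands on the vessel wall. The integrin made of the Itgal and Itgb2 chains (LFA-1) binds ICAM-1 and ICAM-2, and the integrin made of the Itga4 chain with the Itgb1 chain (VLA-4) binds VCAM-1. Resting brain endothelium carries little of either selectin, and systemic inflammation is a known inducer of both. In mouse, LPS and TNF induce transcription of Selp as well as Sele, whereas the human SELP gene is not induced by TNF.

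The RefSeq promoter table (GRCm38.p6) held 4 of the 9 genes: Selp, Sele and Icam1, which rose under LPS in the counts, and Itga4, which was not called. They are shown because the regions next to the start sites of the 3 induced genes differ from one another and from that of Itga4 in the motifs they hold. Each sequence runs 5′ to 3′ on the plus strand, which is the gene strand, from 250 bases before the start site to 50 bases after it. Capitals mark matches to GGG followed after any 5 bases by CC, or to GGAAANNCC, both loosened forms of the sequence that NF-kB dimers bind, and to the TATA box TATAAA. Both strands were searched, and the first 2 motifs can overlap.
Selp, chr1:164115014-164115313: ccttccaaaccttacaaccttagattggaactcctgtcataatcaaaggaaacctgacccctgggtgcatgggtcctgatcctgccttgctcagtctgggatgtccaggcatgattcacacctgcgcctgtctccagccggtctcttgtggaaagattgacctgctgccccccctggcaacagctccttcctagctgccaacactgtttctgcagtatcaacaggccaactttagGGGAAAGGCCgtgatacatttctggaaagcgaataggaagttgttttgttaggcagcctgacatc
Sele, chr1:164047984-164048283: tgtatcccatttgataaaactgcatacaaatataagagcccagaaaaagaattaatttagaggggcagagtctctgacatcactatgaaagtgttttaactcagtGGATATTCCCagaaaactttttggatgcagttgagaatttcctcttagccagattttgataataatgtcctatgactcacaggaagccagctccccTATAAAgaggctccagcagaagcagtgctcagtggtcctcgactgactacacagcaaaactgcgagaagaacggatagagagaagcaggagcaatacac
Icam1, chr9:21015690-21015989: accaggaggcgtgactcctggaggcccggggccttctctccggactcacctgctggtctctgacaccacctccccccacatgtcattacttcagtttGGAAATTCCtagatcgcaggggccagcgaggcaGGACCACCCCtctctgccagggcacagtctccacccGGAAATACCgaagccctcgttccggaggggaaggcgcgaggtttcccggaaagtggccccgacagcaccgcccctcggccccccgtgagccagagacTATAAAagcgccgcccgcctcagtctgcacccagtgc
Itga4, chr2:79255176-79255475: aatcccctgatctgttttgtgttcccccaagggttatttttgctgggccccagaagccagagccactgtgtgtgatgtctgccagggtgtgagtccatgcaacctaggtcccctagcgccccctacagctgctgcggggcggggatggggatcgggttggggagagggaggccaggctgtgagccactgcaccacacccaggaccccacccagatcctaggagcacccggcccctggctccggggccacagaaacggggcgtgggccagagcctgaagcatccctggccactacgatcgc
The Selp region held GGGAAAGGCC from 15 bases before the start site, with an overlapping match, GGAAAGGCC, 1 base further on, and no TATAAA. The Sele region held GGGAATATCC on the opposite strand, at 145 bases before the start site, and TATAAA at 49 bases before it. The Icam1 region held GGAAATTCC at 153 bases and GGAAATACC at 84 bases before the start site, GGGGTGGTCC on the opposite strand at 120 bases before it, and TATAAA from 13 bases after it. This RefSeq start site of Icam1 lies before the gene start in the count table, 21015960, and its distances depend on that choice. For Selp, Sele and Itga4 the start sites match. The Itga4 region held none of these letters. Of 32851 RefSeq promoters of the same length, 50.8% held GGG and CC set 5 bases apart, 5.82% held GGAAANNCC and 13.6% held TATAAA, so a match to the first is common; a match is a description of the letters and not evidence of binding.

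Library totals ran between 48149131 and 75741388 counts and gave a two-sided exact permutation p of 0.496 (labelled Abca7) and 0.617 (controls) between LPS and no stimulus, and of 0.55 (LPS) and 0.171 (no stimulus) between labels, with 6 libraries in each group. Summed markers of cortical neurons stood between 986 and 1406 CPM (counts scaled to library size) in all 24 libraries, a sum that was mostly Slc17a7. Between LPS and no stimulus this sum gave an exact permutation p of 0.325 in mice labelled Abca7 and 0.143 in controls (0.541 and 0.336 adjusted over 40 tests). By mean log2 CPM this list was lower under LPS, with a difference of -0.192 in mice labelled Abca7 and -0.291 in controls (exact permutation p = 0.0173 in each label, not adjusted), and of its 5 genes 1 fell in mice labelled Abca7 and 2 in controls. Neurod6 fell in both, to 32 ± 2.85 CPM in labelled Abca7 LPS mice against 44 ± 4.88 CPM in unstimulated mice of that label, and to 29.5 ± 3.75 CPM in control LPS mice against 45.6 ± 4.34 CPM in unstimulated controls. Abca7 itself was not lower in the mice with its label: it averaged 29.4 ± 2.3 CPM in labelled Abca7 LPS mice and 24.5 ± 2.66 CPM in control LPS mice, and 32.1 ± 2.07 CPM in unstimulated mice labelled Abca7 and 28.6 ± 2.22 CPM in unstimulated controls (SD, n = 6 each). Its log2 difference between the labels was 0.26 ± 0.07 under LPS (SE; adjusted p = 0.267) and 0.17 ± 0.07 without (adjusted p = 0.606). Each genotype difference here is therefore a difference between labels. Markers of choroid plexus, a tissue that adjoins the cortex, were uneven, with a summed level of 39 to 448 CPM in labelled Abca7 LPS mice, 198 to 563 CPM in control LPS mice, 65.3 to 520 CPM in unstimulated mice labelled Abca7 and 18.3 to 316 CPM in unstimulated controls.

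A single library stood apart before any test. In labelled Abca7 LPS replicate 4, Selp, Sele, Icam1, Vcam1 and Itgal were each the lowest of the 12 LPS libraries, and Selplg and Icam2 were the highest of the 12. Against the mean of labelled Abca7 LPS replicates 1, 2, 5 and 6, it had 13.5% of their Selp, 13.2% of their Sele, 13.4% of their Icam1, 57.7% of their Vcam1 and 59.5% of their Itgal. It was still above the mean of the unstimulated mice of its label, 18.6-fold for Selp, 9.47-fold for Sele, 3.88-fold for Icam1 and 1.72-fold for Vcam1, while its Itgal was 0.957-fold and its Selplg 0.956-fold that mean. Its total of 54193779 counts lay within the range of the others. Labelled Abca7 LPS replicates 3 and 4 were the only mice of that group aged 54 days, and replicate 3 was the second lowest of the 12 LPS libraries for Selp, Sele, Vcam1 and Itgal. The only control LPS mouse of 54 days, replicate 3, had 13.5 CPM of Selp, the second highest of its group. Within the labelled Abca7 LPS group, an age of 54 days and these 2 libraries cannot be told apart. Results that rest on replicate 4 are given with and without it.

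**Figure D1:**
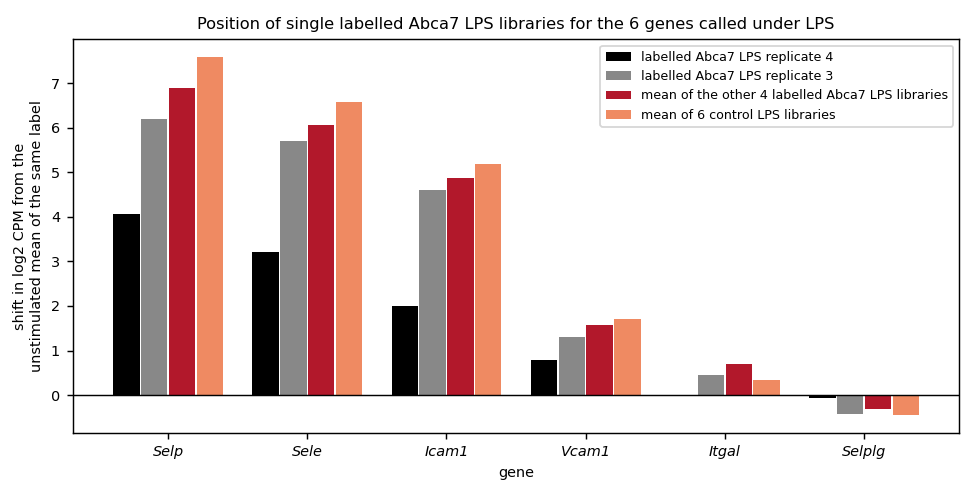
Shift in log2 CPM from the unstimulated mean of the same label (y axis) for the 6 genes called under LPS in mice labelled Abca7 (x axis), with bars for labelled Abca7 LPS replicate 4, labelled Abca7 LPS replicate 3, the mean of the other 4 labelled Abca7 LPS libraries and the mean of the 6 control LPS libraries. Replicate 4 moved by 4.06 for Selp, 3.21 for Sele and 1.99 for Icam1, against 6.88, 6.07 and 4.87 in the other 4, and by -0.02 for Itgal and -0.06 for Selplg.

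The first question was what LPS does to these genes in each genotype label. In mice labelled Abca7, 5 of the 9 genes rose (Selp, Sele, Icam1, Vcam1 and Itgal) and Selplg fell. In control mice Selp, Sele, Icam1 and Vcam1 rose and Selplg fell. Both selectins rose furthest, followed by Icam1 and Vcam1, while Icam2, Itgb2 and Itga4 were not called in either label. Of all 21891 genes tested, 11.8% were called in mice labelled Abca7, 6.65% higher and 5.18% lower, and 17.3% in control mice, 9.39% higher and 7.92% lower. The median log2 difference of the 9 genes was 0.55 in mice labelled Abca7 and 0.34 in controls, beside 0.00516 and 0.00514 over all genes. In bulk tissue, fewer cells of a type and less RNA per cell cannot be told apart.

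**Figure D2:**
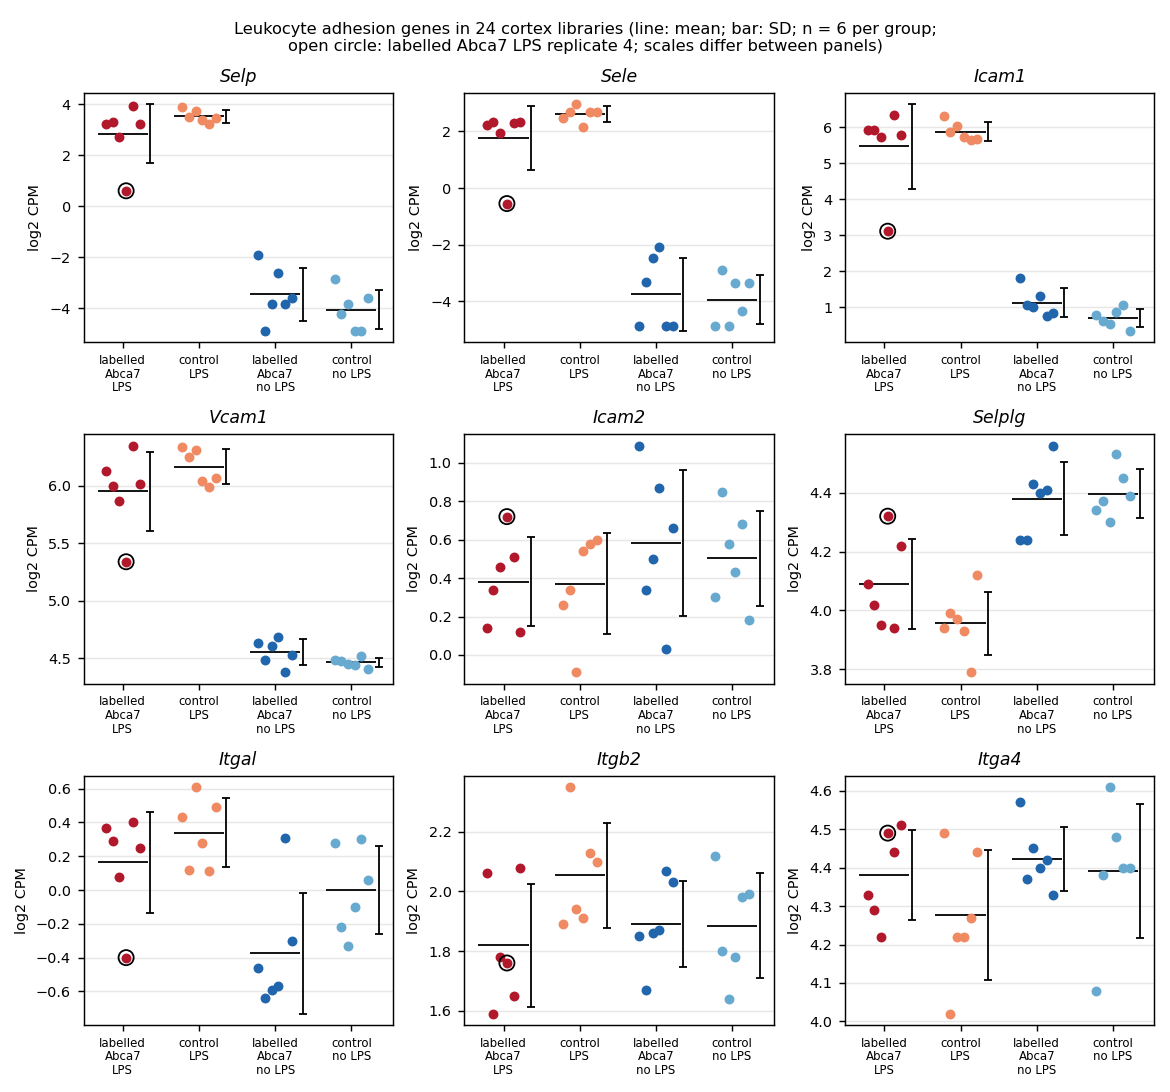
Level in log2 CPM (y axes, which differ between panels) of the 9 adhesion genes in each of 24 cortex libraries, by group (x axes, 6 libraries each); lines are means, bars are SDs and the open circle is labelled Abca7 LPS replicate 4. For Selp, Sele, Icam1 and Vcam1 all 12 LPS libraries lie above all 12 unstimulated ones, whereas the groups overlap for Icam2, Itgb2 and Itga4. The share of all genes tested whose groups separate in this way is not given here.

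Selp (ENSMUSG00000026580, chr1:164115264-164150026 on mm10) encodes P-selectin, which endothelial cells and platelets store in granules and which starts rolling. Its lowest, median and highest levels were 1.49, 9.46 and 15.4 CPM in labelled Abca7 LPS mice, against 0, 0.0428 and 0.231 CPM in unstimulated mice of that label. In control mice they were 9.28, 11.2 and 14.7 CPM after LPS, against 0, 0.0278 and 0.104 CPM without stimulus. The lowest LPS library was replicate 4 of the labelled Abca7 mice and the next lowest had 6.64 CPM, so no LPS library overlapped an unstimulated one, and the gene was close to silent without LPS, with 24 counts summed over 6 unstimulated libraries labelled Abca7 and 12 over 6 unstimulated controls. The log2 difference was 6.86 ± 0.50 in mice labelled Abca7 (SE, n = 6 per group; adjusted p = 3.82e-11) and 8.35 ± 0.54 in control mice (adjusted p = 2.6e-12). These SEs are derived from F and understate the uncertainty where a group is near 0 counts. The genotype difference of Selp without LPS had an SE of 1.21. Because so few counts stand on the unstimulated side, the size of the change is less certain than its direction: without unstimulated control replicate 1, which held 6 of the 12 counts, the value in controls was 9.04. In mice labelled Abca7 it was 7.46 with age in the fit and 7.67 in mice of 55 and 56 days, and 7.08 without labelled Abca7 LPS replicate 4. Of the exonic bases of Selp, 14.1% overlap Gm16587 or Gm16548 on the other strand, from which its counts cannot be separated without strand.

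Sele (ENSMUSG00000026582, chr1:164048234-164057677) encodes E-selectin, which is made by activated endothelium and slows rolling cells; the gene ends 57587 bases before Selp begins. Its lowest, median and highest levels were 0.647, 4.78 and 5.08 CPM in labelled Abca7 LPS mice, against 0, 0.0329 and 0.201 CPM in unstimulated mice of that label. In control mice they were 4.44, 6.45 and 7.79 CPM after LPS, against 0, 0.0393 and 0.101 CPM without stimulus. All LPS libraries stood above all unstimulated ones, which held 23 counts in all in mice labelled Abca7 and 14 in controls. The log2 difference was 5.82 ± 0.50 in mice labelled Abca7 (adjusted p = 1.01e-09) and 7.22 ± 0.53 in control mice (adjusted p = 2.92e-11). The limit given for the SEs of Selp holds here too, as the genotype difference of Sele without LPS had an SE of 1.02. In mice labelled Abca7 it was 6.47 without unstimulated replicate 4, which held 11 of their 23 counts, and 6.04 without LPS replicate 4. Per kilobase of gene length, Selp stood at 1.15 to 2.06 times the level of Sele in labelled Abca7 LPS libraries (median 1.32) and at 0.953 to 1.75 times in control LPS libraries (median 1.16); labelled Abca7 LPS replicate 4, at 1.52, lay inside both ranges although both genes were low in it.

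Icam1 (ENSMUSG00000037405, chr9:21015960-21028797) encodes ICAM-1, the ligand of LFA-1 that holds leukocytes in firm adhesion and that microglia and astrocytes also make. Its lowest, median and highest levels were 8.61, 58.1 and 81.1 CPM in labelled Abca7 LPS mice, against 1.64, 2.01 and 3.5 CPM in unstimulated mice of that label. In control mice they were 50.5, 55.5 and 79.2 CPM after LPS, against 1.23, 1.59 and 2.06 CPM without stimulus. The groups did not overlap in either label. Icam1 rose by 4.61 ± 0.33 on the log2 scale in mice labelled Abca7 (adjusted p = 2.89e-11) and by 5.20 ± 0.34 in control mice (adjusted p = 3.17e-12). Its unstimulated level rested on 74 to 152 counts per library, so that its change is better fixed than those of the selectins: leaving out any single library gave 4.45 to 4.83 in mice labelled Abca7 and 5.1 to 5.28 in controls. The antisense gene Gm47079 overlaps 11.7% of its exonic bases.

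Vcam1 (ENSMUSG00000027962, chr3:116110020-116129688), the ligand of VLA-4, was already well expressed without stimulus. Its lowest, median and highest levels were 40.4, 64.4 and 81.3 CPM in labelled Abca7 LPS mice, against 20.8, 23.8 and 25.8 CPM in unstimulated mice of that label. In control mice they were 63.5, 71.5 and 81.2 CPM after LPS, against 21.3, 22.1 and 23 CPM without stimulus. Every LPS library was above every unstimulated one, and the unstimulated controls differed little among themselves, with a coefficient of variation of 2.74%. The log2 difference was 1.43 ± 0.10 in mice labelled Abca7 (2.69-fold, adjusted p = 2.48e-11) and 1.71 ± 0.10 in control mice (3.27-fold, adjusted p = 4.64e-13). Without labelled Abca7 LPS replicate 4 it was 1.52 in mice labelled Abca7.

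Icam2 (ENSMUSG00000001029, chr11:106377656-106388075) encodes ICAM-2, a second ligand of LFA-1 that endothelium carries constitutively, and it was low in all groups. It averaged 1.28 ± 0.212 CPM in labelled Abca7 LPS mice and 1.5 ± 0.397 CPM in unstimulated mice of that label, and 1.28 ± 0.225 CPM in control LPS mice and 1.4 ± 0.247 CPM in unstimulated controls (SD, n = 6 each). The libraries overlapped, and neither log2 difference was called, at -0.23 (95% interval -0.57 to 0.11, adjusted p = 0.441) in mice labelled Abca7 and -0.13 (-0.46 to 0.21, adjusted p = 0.668) in controls. At 55 to 109 counts per library, these intervals leave room for a change of either sign in both labels, and they exclude rises of the size seen for Icam1 and Vcam1.

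On the leukocyte side, Selplg (ENSMUSG00000048163, chr5:113817798-113830501) encodes PSGL-1, the main ligand of P-selectin, which in brain tissue is mostly a microglial transcript. Across the 6 libraries of a group its lowest, median and highest levels were 15.3, 16.6 and 19.9 CPM in labelled Abca7 LPS mice, against 18.9, 21.1 and 23.5 CPM in unstimulated mice of that label. In control mice they were 13.8, 15.5 and 17.4 CPM after LPS, against 19.6, 20.8 and 23 CPM without stimulus. The control groups did not overlap, and in mice labelled Abca7 only LPS replicate 4 reached into the unstimulated range. Selplg fell in both labels, with a log2 difference of -0.29 ± 0.07 in mice labelled Abca7 (adjusted p = 0.00284) and -0.44 ± 0.07 in controls (adjusted p = 1.03e-05), and its change was -0.34 in mice labelled Abca7 without LPS replicate 4. The summed level of 10 microglial markers was lower under LPS too, at 217 to 250 CPM in labelled Abca7 LPS mice against 293 to 314 CPM in unstimulated mice of that label, and 216 to 235 CPM in control LPS mice against 302 to 311 CPM in unstimulated controls (exact permutation p = 0.00216 in each label, the smallest that 6 against 6 allows; 0.0144 adjusted over 40 such tests). Their part in the fall of Selplg was not tested.

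The integrin chains had small differences. Itgal (ENSMUSG00000030830, chr7:127296260-127335137), the alpha chain of LFA-1, had a lowest, median and highest level of 0.726, 1.17 and 1.28 CPM in labelled Abca7 LPS mice, against 0.608, 0.665 and 1.2 CPM in unstimulated mice of that label. Control mice had 1.05, 1.25 and 1.5 CPM after LPS, against 0.764, 0.953 and 1.2 CPM without stimulus. These values come from 30 to 99 counts per library, and the groups overlapped in both labels. Itgal rose in mice labelled Abca7 by 0.55 ± 0.17 on the log2 scale (adjusted p = 0.0371), and its change in controls was 0.34 ± 0.17 (adjusted p = 0.176); the interaction, 0.21 ± 0.24 (adjusted p = 1), gave no call for a difference between the labels. The call ended with no filter on low counts (adjusted p = 0.0612) and on leaving out any 1 of unstimulated replicates 1, 2, 3, 4 and 6 or LPS replicates 1, 2, 5 and 6 of that label (adjusted p between 0.0558 and 0.0924), whereas without LPS replicate 4 the value was 0.64 (adjusted p = 0.00961).

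Itgb2 (ENSMUSG00000000290, chr10:77530252-77565708), the beta chain that LFA-1 shares with the integrins of Itgam and Itgax, had a lowest, median and highest level of 2.97, 3.38 and 4.2 CPM in labelled Abca7 LPS mice and 3.14, 3.62 and 4.15 CPM in unstimulated mice of that label. In control mice these were 3.66, 4.03 and 5.08 CPM after LPS and 3.07, 3.67 and 4.31 CPM without stimulus. The ranges overlapped in both labels, and the log2 differences, -0.06 (95% interval -0.28 to 0.15, adjusted p = 0.79) and 0.17 (-0.04 to 0.38, adjusted p = 0.295), were not called. Itgb2 lies 2430786 bases from Abca7 on the same chromosome. Itga4 (ENSMUSG00000027009, chr2:79255426-79333123), the alpha chain of VLA-4, averaged 20.8 ± 1.66 CPM in labelled Abca7 LPS mice and 21.5 ± 1.29 CPM in unstimulated mice of that label, and 19.5 ± 2.3 CPM in control LPS mice and 21.1 ± 2.47 CPM in unstimulated controls. Its log2 differences of -0.04 (-0.20 to 0.11, adjusted p = 0.797) and -0.11 (-0.27 to 0.04, adjusted p = 0.35) had narrow intervals that exclude any change as large as that of Vcam1. Cerkl, on the other strand, overlaps 8.04% of the exonic bases of Itga4.

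**Figure D3:**
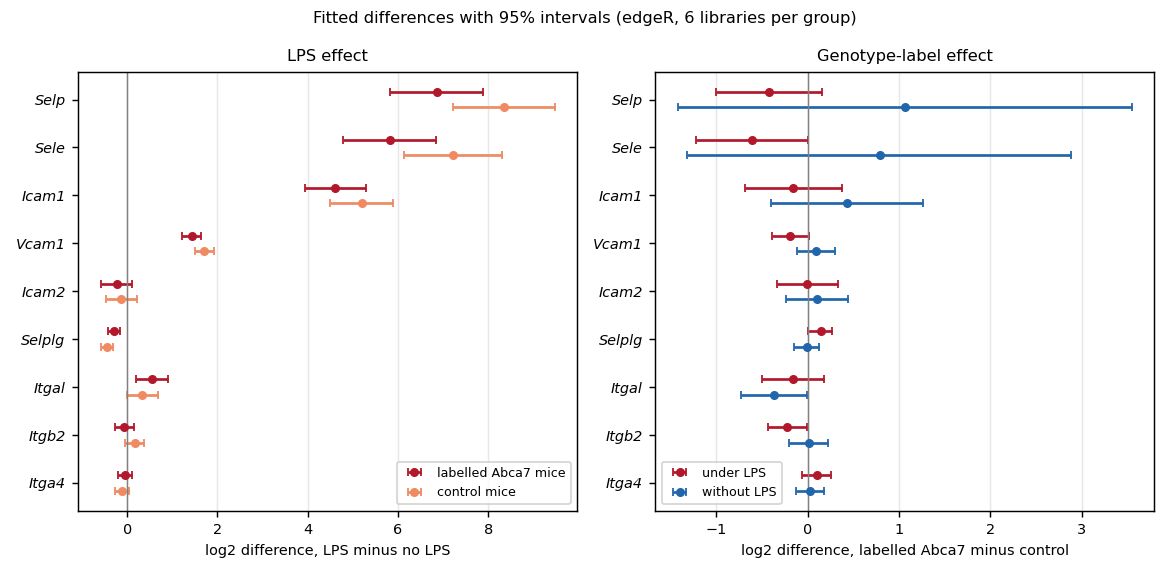
Fitted log2 differences (x axes) with 95% intervals for the 9 adhesion genes (y axes). At left are the LPS effects, in mice labelled Abca7 above those in control mice; at right are the differences of labelled Abca7 minus control mice, under LPS above those without LPS. Selp, Sele, Icam1 and Vcam1 stand right of 0 in both labels at left, and no difference at right was called, with intervals without LPS that are widest for Selp (-1.42 to 3.55) and Sele (-1.32 to 2.89). The intervals at left for Selp and Sele are too narrow, because they are derived from F and the unstimulated libraries are near 0 counts.

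Set on a common scale of CPM per kilobase of deposited gene length, LPS changed the order of the genes. In labelled Abca7 LPS mice the levels were highest for Icam1 (21 ± 9.45) and Vcam1 (18.6 ± 3.99), whose ranges overlapped, followed by Selplg (6.56 ± 0.712), which was separate from its neighbours in this order although Icam1 in replicate 4, at 3.39, lay below it. Selp (1.97 ± 1.03), Itga4 (1.49 ± 0.119), Sele (1.38 ± 0.59) and Itgb2 (1.16 ± 0.171) followed with overlapping ranges, and Icam2 (0.673 ± 0.111) and Itgal (0.173 ± 0.0324) were lowest, each separate from the gene above it. In replicate 4, however, Selp, at 0.338, and Sele, at 0.222, lay below the lowest Icam2 value of the group, 0.552. Control LPS mice had the same order except that Sele (2.13 ± 0.384) stood above Itga4 (1.39 ± 0.165), again with overlapping ranges. Without stimulus, Selplg led in mice labelled Abca7 (8.01 ± 0.671) and in controls (8.08 ± 0.467), ahead of Vcam1 (6.93 ± 0.537 and 6.5 ± 0.178), with overlap in mice labelled Abca7 and none in controls. Icam1, at 0.875 ± 0.27 in mice labelled Abca7 and 0.636 ± 0.117 in controls, overlapped Icam2 there, and both selectins were lowest, with Sele at 0.0235 ± 0.0296 and 0.0139 ± 0.0143 and Selp at 0.0181 ± 0.0193 and 0.00783 ± 0.00882. The deposited length of Selplg, Icam1, Vcam1 and Itgal differs from that of the annotation used here for overlaps (GENCODE M21), which bears on their place in this order and on no difference between groups.

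**Figure D4:**
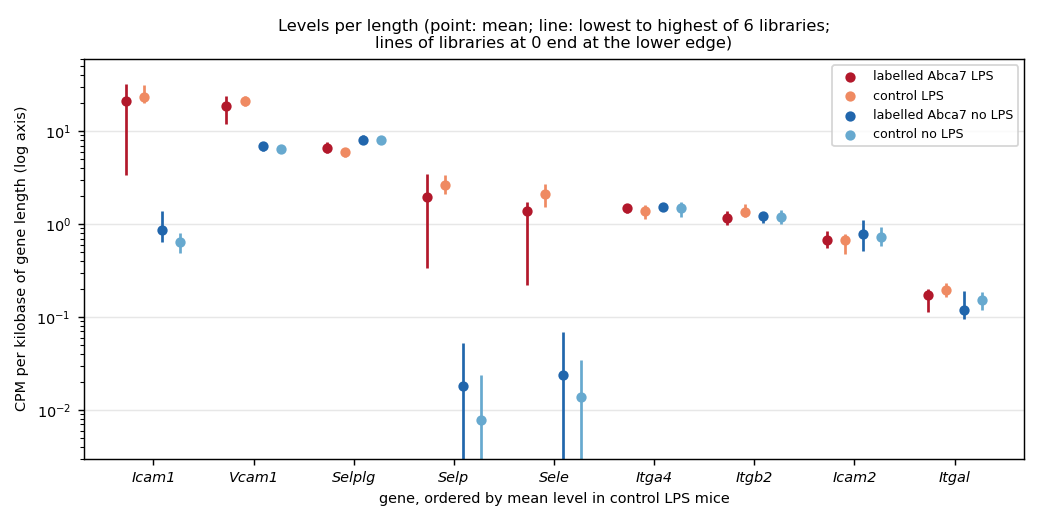
Level in CPM per kilobase of gene length (y axis, log scale) of the 9 adhesion genes (x axis, ordered by the mean in control LPS mice), with a point for the mean and a line from the lowest to the highest of 6 libraries in each group. Icam1, Selp and Sele change place between the LPS and the unstimulated groups, while Itga4, Itgb2 and Icam2 keep their levels within overlapping ranges.

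The second question was whether the genotype label mattered. Under LPS none of the 9 genes was called between labelled Abca7 and control mice by edgeR, and of all 21891 genes 0% were called, although 1748 genes had an unadjusted p under 0.05 and DESeq2 called 37. Among the 9, Selplg (log2 difference 0.14, unadjusted p = 0.0443, adjusted p = 0.614) and Itgb2 (-0.23, unadjusted p = 0.0378, adjusted p = 0.599) had an unadjusted p under 0.05. The means of the 4 genes induced in both labels were lower in labelled Abca7 LPS mice than in control LPS mice, by a log2 difference of -0.42 ± 0.28 for Selp, -0.61 ± 0.30 for Sele, -0.16 ± 0.26 for Icam1 and -0.19 ± 0.10 for Vcam1, all with adjusted p between 0.63 and 0.908. Without labelled Abca7 LPS replicate 4 these became -0.20, -0.40, 0.06 and -0.09, and in mice of 55 and 56 days they were -0.04, -0.25, 0.14 and -0.01. The 95% intervals of the full comparison, such as -1.23 to 0.00 for Sele and -0.69 to 0.37 for Icam1, do not show that the labels act alike.

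Without LPS, again none of the 9 genes was called, beside 7 of all genes (0.032%; 0.0137% higher and 0.0183% lower), 1426 with an unadjusted p under 0.05 and 31 called by DESeq2. Itgal had an unadjusted p of 0.0439 (log2 difference -0.37, adjusted p = 0.756), with 0.758 ± 0.227 CPM in unstimulated mice labelled Abca7 and 0.978 ± 0.181 CPM in unstimulated controls. The selectin differences, 1.07 ± 1.21 for Selp and 0.79 ± 1.02 for Sele, rested on the few counts given above. Without unstimulated control replicate 1 that of Selp was 1.76, and without unstimulated labelled Abca7 replicate 4 that of Sele was 0.13; in mice of 55 and 56 days they were 0.33 for Selp and 1.49 for Sele. The interaction, which tests whether the LPS effect differs between the labels, gave 0 calls among the 9 genes and 0% among all genes with edgeR and 0 with DESeq2, with 745 genes at an unadjusted p under 0.05 by edgeR and none of the 9 among them. It was -1.49 ± 1.25 for Selp, -1.40 ± 1.08 for Sele, -0.59 ± 0.48 for Icam1 and -0.28 ± 0.14 for Vcam1 (adjusted p = 1 for each). Without labelled Abca7 LPS replicate 4 these were -1.27, -1.18, -0.37 and -0.18. The selectin values moved further with single unstimulated libraries, to -2.17 for Selp without control replicate 1 and to -0.75 for Sele without labelled Abca7 replicate 4, and in mice of 55 and 56 days they were -0.36 for Selp and -1.74 for Sele.

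Other genes of the same cascade were taken from 4 lists, one for each of its parts, written with earlier results of these data known. Of 15 tested genes of endothelial adhesion and transmigration, 4 rose and 1 fell in each label. Leaving out any single library gave 3 to 6 rising in mice labelled Abca7, with 6 without LPS replicate 4, and 1 to 2 falling in controls, with 2 without control LPS replicate 6. Cdh5, the VE-cadherin of endothelial junctions, rose by 1.13 ± 0.12 on the log2 scale in mice labelled Abca7 and 1.41 ± 0.12 in controls, and the junctional molecule F11r (JAM-A) by 0.56 ± 0.08 and 0.76 ± 0.08. Pecam1, which lines the junctions through which leukocytes pass, fell by 0.62 ± 0.08 and 0.75 ± 0.08. Its levels were 10.2 ± 1.3 CPM in labelled Abca7 LPS mice against 15.8 ± 1.67 CPM in unstimulated mice of that label, and 9.11 ± 0.661 CPM in control LPS mice against 15.3 ± 1.2 CPM in unstimulated controls. In labelled Abca7 LPS replicate 4 Cdh5 stood at 13.1 CPM, where its group averaged 25.1 ± 6.35 CPM and unstimulated mice of that label 11.5 ± 0.816 CPM. The median log2 difference of the list was 0.01 in mice labelled Abca7 and -0.01 in controls.

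Of 13 tested leukocyte integrins and adhesion receptors outside the 9, 5 rose and none fell in each label. Leaving out any single library gave 4 to 5 rising in each label. In mice labelled Abca7 there were also 4 with no filter on low counts, with the stricter filter, with Ttr as a covariate and in mice of 55 and 56 days. Leaving out control LPS replicate 1 or labelled Abca7 LPS replicate 6 gave 1 falling in controls. Itgad, an alpha chain that pairs with the Itgb2 chain, rose by 1.45 ± 0.30 in mice labelled Abca7 and 1.57 ± 0.29 in controls, the hyaluronan receptor Cd44 by 0.59 ± 0.13 and 0.99 ± 0.13, and the fibronectin receptor chain Itga5 by 0.53 ± 0.13 and 0.57 ± 0.13. Itgb1, which completes VLA-4, was not called (adjusted p = 0.606 in mice labelled Abca7 and 0.97 in controls), nor was Itgam (adjusted p = 0.953 and 0.581); Itgb1 and Itgam are outside the rule for named genes and are given as partners of the chains above. With Ttr, a choroid plexus gene, as a covariate, 3 genes of this list were called in controls, and Itgad, at 1.29 there, was not among them (adjusted p = 0.102). The median of the list was 0.38 in mice labelled Abca7 and 0.12 in controls.

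Of 14 genes of integrin activation and signalling, 6 rose and 3 fell in mice labelled Abca7, and 6 rose and 2 fell in controls. Leaving out any single library gave 5 to 6 rising in each label, with 3 to 4 falling in mice labelled Abca7 and 2 to 3 in controls. The adaptor Lcp2 rose by 1.55 ± 0.15 in mice labelled Abca7 and 1.67 ± 0.15 in controls, and the exchange factor Vav1 by 0.92 ± 0.10 and 0.88 ± 0.10. Apbb1ip and Rasgrp2 had lower means under LPS. In mice labelled Abca7 these were 2.74 against 3.75 CPM and 48.7 against 56.6 CPM, and in controls 2.45 against 3.52 CPM and 45.5 against 54.4 CPM. The median log2 difference of the list was 0.12 in mice labelled Abca7 and 0.09 in controls. Of 11 genes that build or sulphate selectin ligands, 3 rose in mice labelled Abca7 and 4 in controls, and none fell. Leaving out any single library gave 3 to 6 rising and 0 to 1 falling in controls, with 6 rising without unstimulated control replicate 6 and 1 falling without unstimulated control replicate 1, unstimulated labelled Abca7 replicate 1 or control LPS replicate 6. The galactosyltransferase B4galt1 rose by 0.83 ± 0.10 and 0.97 ± 0.10, and Gcnt1, which makes the branched O-glycans that selectin ligands carry, by 0.72 ± 0.20 and 0.86 ± 0.19. Galnt1, which starts O-glycans, rose in controls (0.14 ± 0.04, adjusted p = 0.0184) and not by the test in mice labelled Abca7 (0.04 ± 0.04, adjusted p = 0.626). With Ttr as a covariate 2 genes of this list were called in controls. The call of Gcnt1 ended there (0.49, adjusted p = 0.35). In mice labelled Abca7 it ended at ages of 55 and 56 days (0.60, adjusted p = 0.156) and without LPS replicates 3 and 4 (0.62, adjusted p = 0.0697), fits with fewer libraries. The call of Galnt1 in controls ended with Ttr (0.10, adjusted p = 0.411), at ages of 55 and 56 days (0.12, adjusted p = 0.125) and without control LPS replicate 4 (0.12, adjusted p = 0.0636). No gene of the 4 lists was called for genotype or interaction, and Glycam1, Spn, Cd2 and Chst4 did not pass the filter on low counts.

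Markers of the cells that carry these molecules were measured beside them. The summed level of 10 brain endothelial markers was lower under LPS, at 233 to 281 CPM in labelled Abca7 LPS mice against 327 to 365 CPM in unstimulated mice of that label, and 244 to 264 CPM in control LPS mice against 330 to 355 CPM in unstimulated controls (0.734-fold in each label, exact permutation p = 0.00216, 0.0144 adjusted over 40 tests). Selp, Sele, Icam1 and Vcam1 were higher, and bulk tissue does not show in which cells. Of these markers 7 fell, Pecam1 among them, and 2, Cdh5 and Esam, rose in each label; these 3 genes are also in the list of endothelial adhesion and transmigration. In labelled Abca7 LPS replicate 4 the endothelial sum was 281 CPM and the microglial sum 250 CPM, each the highest of the 12 LPS libraries. Of the 10 microglial markers 8 fell in each label, Fcrls rose in both (log2 difference 0.18 ± 0.06 in mice labelled Abca7 and 0.26 ± 0.06 in controls) and C1qa rose in mice labelled Abca7 (0.25 ± 0.06, adjusted p = 0.00323) and was not called in controls (0.16 ± 0.06, adjusted p = 0.0536). The part of these shifts in the adhesion genes' values was not tested.

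Blood cell transcripts were scarce. The sum of 11 neutrophil markers was 0.981 to 2.38 CPM in labelled Abca7 LPS mice against 0.503 to 1.39 CPM in unstimulated mice of that label, and 1.26 to 3.75 CPM in control LPS mice against 0.503 to 1.07 CPM in unstimulated controls. It was 2.18-fold higher in mice labelled Abca7 (exact permutation p = 0.0108, 0.0481 adjusted over 40 tests) and 2.8-fold higher in controls (p = 0.00216, 0.0144 adjusted). S100a8 and S100a9 made up most of this rise. In mice labelled Abca7 S100a8 averaged 0.356 CPM after LPS against 0.0962 CPM, and S100a9 0.681 against 0.154 CPM. In controls these were 0.672 against 0.151 CPM and 0.799 against 0.131 CPM. Of the 11 markers 3 passed the filter: these 2 genes, which rose in each label, and Cxcr2, which was not called in either. Elane had 0 counts in all 24 libraries and Ly6g had 0 counts in both control groups. Labelled Abca7 LPS replicate 4 had the lowest neutrophil sum of its group. The monocyte sum rose as well, 1.14-fold in mice labelled Abca7 (exact permutation p = 0.00649, 0.0371 adjusted) and 1.25-fold in controls (p = 0.00216, 0.0144 adjusted); Fn1 and Vcan, which other brain cells also express, made up most of its level. It stood at 101 to 121 CPM in labelled Abca7 LPS mice against 86.7 to 103 CPM in unstimulated mice of that label, and at 112 to 124 CPM in control LPS mice against 85.2 to 103 CPM in unstimulated controls. Of 7 tested monocyte markers 3 rose in mice labelled Abca7 and 5 in controls, and none fell. The largest changes were those of Plac8, with a log2 difference of 3.94 ± 0.77 in mice labelled Abca7 (adjusted p = 0.000503) and 2.94 ± 0.62 in controls (adjusted p = 0.00104), and Ms4a4c, with 3.84 ± 0.61 (adjusted p = 4.13e-05) and 4.03 ± 0.59 (adjusted p = 7.96e-06). Both were low, Plac8 at 0.407 ± 0.176 CPM in labelled Abca7 LPS mice against 0.0251 ± 0.0302 CPM in unstimulated mice of that label, and Ms4a4c at 0.411 ± 0.144 CPM against 0.0258 ± 0.0401 CPM. The monocyte genes Ccr2 (adjusted p = 0.767 in mice labelled Abca7 and 0.713 in controls) and Ly6c2 (adjusted p = 0.589 and 0.633) were not called.

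The sums of platelet, T and NK cell, B cell and erythrocyte markers gave no adjusted p under 0.05 for LPS or genotype. Single genes of these lists were called for LPS. Of 5 tested platelet markers 1 rose in each label, and of 2 tested T and NK cell markers 1 rose in controls. No tested gene of these lists fell. Platelets are a further source of Selp. The sum of the platelet list, 112 to 147 CPM in labelled Abca7 LPS mice, 112 to 131 CPM in control LPS mice, 113 to 149 CPM in unstimulated mice labelled Abca7 and 116 to 135 CPM in unstimulated controls, was nearly all Gp1bb, while Gp6 had 0 counts in both unstimulated groups and in control LPS mice. Gp9 averaged only 0.188 to 0.233 CPM by group. The sum therefore follows Gp1bb and cannot show whether platelets changed. The T and NK cell sum, 10.5 to 15.1, 10.1 to 14, 8.97 to 12.9 and 9.16 to 12 CPM in the same order of groups, was mostly Cd4. It likewise follows that gene and cannot show whether these cells changed. The B cell sum did not exceed 1.51 CPM in any library, and the erythrocyte sum was 22.5 to 39 CPM in labelled Abca7 LPS mice, 20.2 to 45.4 CPM in control LPS mice, 24.5 to 70.1 CPM in unstimulated mice labelled Abca7 and 15.4 to 68.6 CPM in unstimulated controls. The choroid plexus sum differed between control LPS mice and unstimulated controls (4.54-fold, exact permutation p = 0.0108, 0.0481 adjusted). Without LPS it was 4.91-fold in mice labelled Abca7 over controls (exact permutation p = 0.0173, 0.0693 adjusted). With Ttr as a covariate the LPS effect in controls was 8.39 for Selp, 7.30 for Sele, 5.31 for Icam1, 1.71 for Vcam1 and -0.41 for Selplg. Genotype without LPS moved with it from 0.03 to 0.27 for Itga4 (adjusted p = 0.238) and from -0.37 to -0.53 for Itgal (adjusted p = 0.415). The part of blood cells in these results was not tested.

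Variation among mice of the same group was described by taking each group mean off the log2 CPM values and correlating genes over the 24 libraries, which share depth and the tissue sampled. Among the 9 genes the closest pair was Icam1 and Vcam1 (Pearson r = 0.89), followed by Selp with Vcam1 (0.72) and with Icam1 (0.71). These values were lower without a single mouse: leaving out labelled Abca7 LPS replicate 4, they were 0.72, 0.47 and 0.43 over 23 libraries. Selp and Sele, which are neighbours on the chromosome, had r = 0.25, and -0.18 without that library. Unstimulated libraries held only 0 to 11 counts of either gene. The SD of log2 CPM there was 1.04 (labelled Abca7) and 0.78 (controls) for Selp, and 1.29 and 0.86 for Sele. In control LPS mice it was 0.25 for Selp and 0.27 for Sele. Each r with Selp or Sele therefore rests in part on values near 0 counts, and that of the pair cannot show whether they vary together.

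Of 15044 other tested genes that averaged at least 1 on the log2 CPM scale, those most like each member were found in the same way. For Icam1 they were the cytokine signalling inhibitor Socs3 (r = 0.93, 0.68 without labelled Abca7 LPS replicate 4), the prostaglandin E synthase Ptges (0.91, 0.53) and the matrix protease Adamts1 (0.90, 0.68). For Vcam1 they were Sema4c (0.90, 0.76), the NF-kB feedback inhibitor Tnfaip3 (0.88, 0.67) and Akap12 (0.88, 0.67). For Selp they were the glycolytic regulator Pfkfb3 (0.86, 0.78) and the interferon-inducible genes Irgm1 (0.85, 0.75) and Rtp4 (0.85, 0.74), and for Sele 2510002D24Rik (0.78, 0.73), Slc12a7 (0.77, 0.62) and H2-M3 (0.74, 0.59). The values for Selp and Sele carry the limit of few counts without LPS given above. Selplg was closest to the microglial gene Tmem119 (0.76, 0.67), to St3gal2 (0.74, 0.80) and to 4632428N05Rik (0.72, 0.62). The other members' nearest genes were Rbm4b, Elk3 and Snhg5 for Icam2 (0.79 to 0.71), Tchh, 4933407L21Rik and Nudt18 for Itgal (0.79 to 0.75), 9330154J02Rik, 6030419C18Rik and Samm50 for Itgb2 (0.67 to 0.66) and TTC14, Kcnh7 and 4933427D14Rik for Itga4 (0.87 to 0.85). For all members, these genes were picked as the highest r among 15044 candidates. How high r gets by such picking alone was not tested. The r values therefore rank genes and do not by themselves show that a gene varies with a member.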

How the data were processed

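Per the labels' protocols, total RNA was purified from cortical tissue with TRIzol, a DNase step and an RNeasy kit. Per the submitters' processing notes and the design text, reads from a HiSeq 4000 were aligned with STAR 2.5.2b to mm10 and counted with MAP-RSeq 2.1.1. The authors deposited raw counts per gene, with no normalization; the annotation release, strand setting and treatment of reads with several matches are points not given in the sources used here. No other library was left unused: the table has 0 per-sample columns outside these 24 libraries.

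Genes were filtered with filterByExpr, which left 21891 that held at least 99.96% of each library's counts, and all 24 libraries were fitted in edgeR 4.0.16 (R 4.3.3) with TMM factors and 1 coefficient per group. Quasi-likelihood F tests were run for 5 contrasts, two-sided, with Benjamini-Hochberg adjustment over all genes tested and a threshold of 0.05; every adjusted p printed for a gene comes from it. The SE is the log2 difference divided by the square root of F. Where a compared group is near 0 counts, as for Selp, Sele, Plac8 and Ms4a4c without LPS, this SE and its interval can be too small for the LPS effect. CPM uses no prior count, and log2 CPM a prior count of 2. Single values were compared with exact permutation tests (SciPy 1.17.1). Alternatives were DESeq2 1.42.0, its size factors, no filter, a stricter filter (10 counts in 12 libraries), age, Ttr level and leaving out each library; 2 sets of libraries, and the pathway lists under all alternatives, were added after the data were seen.

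The members, lists and tests were chosen with earlier results of these data known; the cortical neuron list was added after the files were read. Named are all 9 members; per list the 3 genes with the largest change in controls among those called that averaged at least 0 on the log2 CPM scale; per member the 3 most like genes with an average of at least 1; and Abca7 and Ttr. A gene that this rule names is not reported here. Other marker, partner and list genes were named after their values were seen. Coordinates are those of the deposited table (mm10). Replicate numbers follow accession order and only name mice. Library titles carry different numbers, taken here as separate mice; no source says more on their origin, so p-values measure the spread between these samples.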

Additional observations from a re-analysis of the deposited data

Results flagged for a closer look

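Each of the 9 genes was checked for a library far from the other 5 of its group, in log2 CPM, which gave 36 sets of 6 values; a gap to the nearest library above Dixon's 95% critical share of the whole range was taken as far. Chance gives about 1 in 20 such sets, and 4 were found. In labelled Abca7 LPS replicate 4, Selp stood at 0.61 against 2.74 to 3.95 in the other 5 libraries, Sele at -0.55 against 1.95 to 2.35, and Icam1 at 3.11 against 5.74 to 6.34. These 3 values come from the same mouse and are not independent of one another. In unstimulated labelled Abca7 replicate 5, Itgal stood at 0.31 against -0.64 to -0.30 in the other 5. Leaving out that library moved the LPS effect on Itgal in mice labelled Abca7 to 0.73 (adjusted p = 0.0023).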

How the results depend on the processing

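The counts of adhesion genes called in each comparison stayed within 1.5 times their value under all 32 alternatives, and the calls of Selp, Sele, Icam1, Vcam1 and Selplg under LPS held in both labels; leaving out 1 library gave 4 to 5 higher calls in mice labelled Abca7, the change being Itgal. Other single values changed sign where they were not called. With Ttr as a covariate, the LPS effect in controls was 0.01 for Icam2 and 0.13 for Itga4, genotype without LPS 0.01 for Selplg and -0.05 for Itgb2, and the interaction -0.20 for Itga4. With age as a factor, the LPS effect in mice labelled Abca7 was 0.04 for Itga4, genotype without LPS -0.01 for Icam2 and -0.04 for Itga4, and the interaction 0.01 for Icam2. In mice of 55 and 56 days, genotype under LPS was 0.14 for Icam1 and 0.04 for Itgal, and without LPS 0.04 for Selplg and -0.05 for Itgb2; without labelled Abca7 LPS replicates 3 and 4, Icam1 under LPS was 0.11. Leaving out 1 library gave, for genotype under LPS, -0.32 to 0.06 for Icam1 and -0.09 to 0.05 for Icam2; without LPS, -0.05 to 0.01 for Selplg, -0.01 to 0.19 for Icam2, -0.04 to 0.06 for Itgb2 and -0.03 to 0.07 for Itga4; and for the interaction, -0.2 to 0.01 for Icam2. As a mean log2 CPM in place of a sum, the difference of labelled Abca7 minus control mice was -0.06 for monocytes without LPS and -0.09 under LPS and -0.17 without LPS for platelets. The cause of these changes was not tested. With age in the fit, 49 of all genes were called for genotype without LPS, and 2 under LPS, against 7 and 0; without LPS there were 3 with Ttr and 4 in mice of 55 and 56 days; with Ttr, 1626 were called for LPS in controls, against 3790. Depth limits Selp and Sele without LPS, where libraries held 0 to 11 counts. No paired analysis was possible because replicate numbers were given in accession order and pair no libraries.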
